A study of Mus musculus with 3 samples.

Results

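The tumour necrosis factor (TNF) superfamily was described in sorted mouse muscle stem cells: its ligands, its receptors and the TRAF proteins that carry the receptors' signal into the cell. Members were taken from a table of 20308 genes by a rule on gene symbols that does not use their values. The family itself was chosen with earlier results of these data known. The rule found 49 members: 16 ligands, 27 receptors and 6 TRAF adaptors. The data were 3 RNA sequencing libraries of 1 group, replicates 1 to 3, from ZsGreen-positive cells of Pax7-ZsGreen mice aged 3 months, so no comparison between conditions is possible. Pax7 is the transcription factor that marks satellite cells, the resident stem cells of muscle, and the reporter makes cells that use it green. About 200000 cells per sample were sorted from digested muscle pooled from several animals; the sample labels name the tibialis anterior and the series description names hindlimb muscle. Levels are in TPM, a transcript's share of all measured transcripts after correction for its length; pairs of numbers joined by ± are the mean and SD of the libraries (n = 3). Separate pools of animals for each library are not stated in the labels, and the spread behind every p-value may therefore be technical.

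TNF superfamily ligands are mostly membrane proteins that work as trimers, on the cell surface or after release by proteases, and each binds a small set of receptors. One class of receptors carries a death domain and can start caspase cascades; another binds TRAF proteins directly and turns on NF-kappaB and MAP kinases; a few lack a signalling tail and act as decoys. In muscle the family is known for inflammation after injury, for wasting driven by TNF, and for the ligand Tnfsf12 (TWEAK) and its receptor Tnfrsf12a, which act on satellite cells and myoblasts.

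The sorted cells carried a few receptors at high level, while the ligands were low or listed at 0. Tnfrsf12a averaged 1395 ± 120 TPM and stood at rank 121 of all genes, and the TNF receptor Tnfrsf1a averaged 278 ± 30.9 TPM. Of the 49 members, 15 lay above 1 TPM by limma's moderated test on log2(TPM + 0.1) with Benjamini-Hochberg adjustment over all genes tested, 18 were not decided and 16 were listed at 0 in all 3 libraries. The 15 were 1 of 16 ligands, 9 of 27 receptors and 5 of 6 TRAF adaptors. The share called above 1 TPM was 30.61% of members, against 38.4% of all genes in the table. Among genes above 0 in at least 1 library it was 45.45% of 33 members, against 60.8% of 12822 genes. The share of members called lay below the background on both counts, so the number of members above 1 TPM is not read as a result about the family. No member was called below 1 TPM (background 2.18%), with 2 below it at an unadjusted limma p under 0.05. The median of the members' means was 1.36 TPM, beside 2.24 TPM over all genes of the table.

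**Figure D1:**
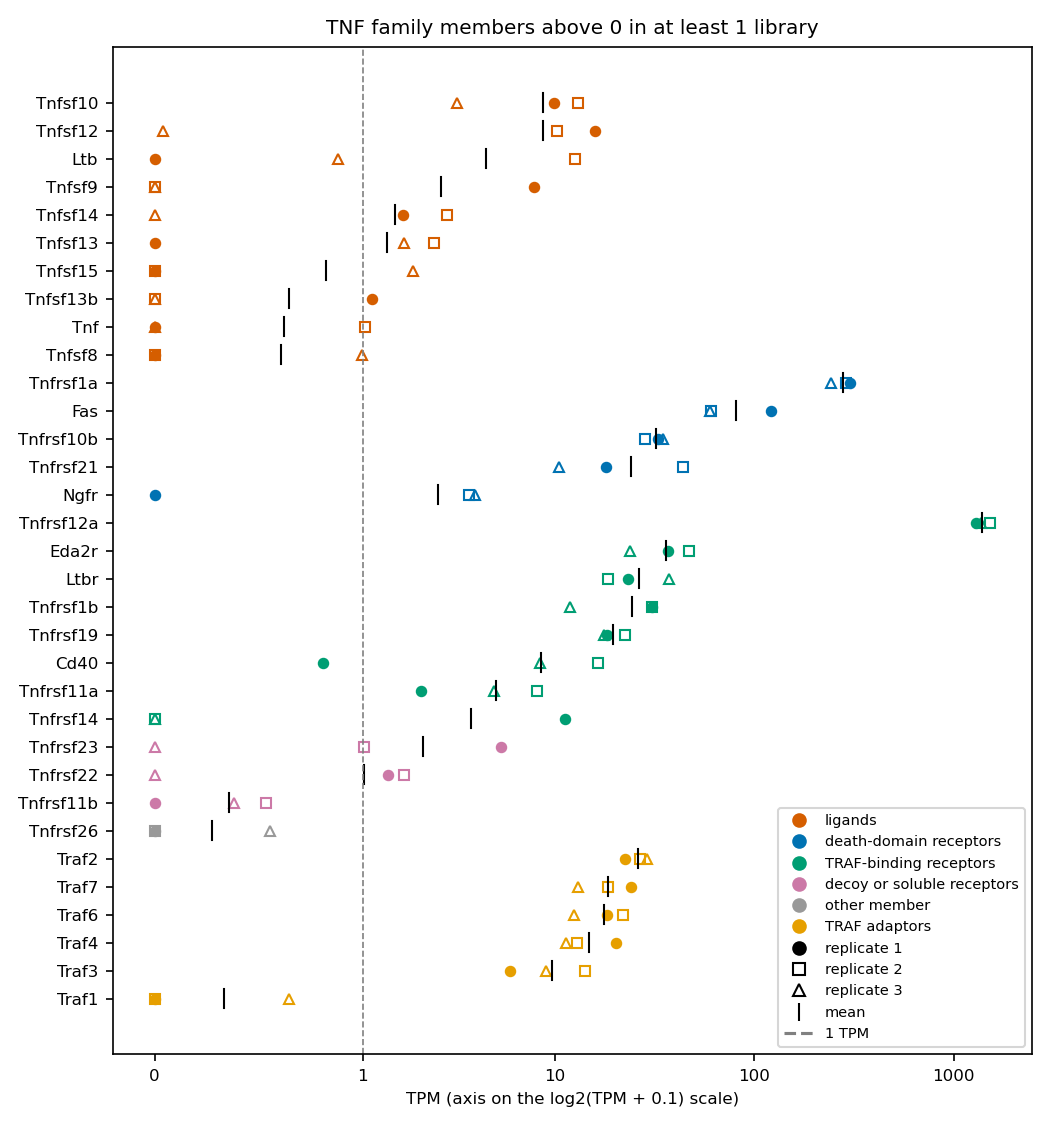
Level of the 33 members above 0 in at least 1 library: each symbol is 1 library (filled circle, open square and triangle for replicates 1 to 3), the tick is the mean, colours are roles, and the axis gives TPM on the log2(TPM + 0.1) scale with 1 TPM dashed. Tnfrsf12a and Tnfrsf1a stand apart at the right, with means of 1395 and 278 TPM, and most ligands have at least 1 library at 0.

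A listed 0 is a weak statement in these data. TPM carries no read totals, depth is unknown, and genes that every cell uses, such as Rps27, are also listed at 0. Among genes with a mean of 1 to 5 TPM, 8 of 8 members were at 0 in at least 1 library, beside 62.8% of 2802 genes in the table. Among genes with a mean of 10 to 100 TPM, 0 of 11 members had a 0, beside 2.74% of 5220 genes. Values of members under about 5 TPM are therefore given library by library. The sorted population was checked against markers: all 10 satellite cell markers, which include the sorted gene Pax7, were above 1 TPM (limma, Benjamini-Hochberg; beside 38.4% of all genes) and summed to 3688 to 3902 TPM per library. Most of these sums came from Myod1 (1240.5 ± 74.5 TPM), Des (1164 ± 17.9 TPM) and Vcam1 (466.5 ± 44.0 TPM). Pax7 averaged 51.4 ± 5.22 TPM. Vcam1 is counted again below among genes that TNF is known to raise. Some markers of other cells were above 1 TPM too. All 10 endothelial markers were above 1 TPM (beside 38.4% of all genes), with sums of 1583 to 2868 TPM. These sums came mostly from the fatty acid carrier Fabp4 at 1898 ± 629 TPM. Of 10 fibro-adipogenic markers 7 were above 1 TPM (70%, beside 38.4% of all genes and 60.8% of genes above 0), with sums of 2123 to 2386 TPM. Most of these sums came from Gsn (888 ± 104 TPM), Col3a1 (585 ± 29.9 TPM) and Dpt (572 ± 16.7 TPM). The 3 not decided, named after their values were seen, were Pdgfra (4.98, 0.11 and 0.06 TPM), Lum (8.58, 6.11 and 0.60 TPM) and Pi16 (0, 8.90 and 3.36 TPM). Of 10 Schwann cell markers 6 were above 1 TPM (60%, beside 38.4% of all genes), with sums of 277 to 383 TPM. Among the 9 above 0 in at least 1 library the same 6 were above 1 TPM, beside 60.8% of such genes in the table. The count is therefore not read as a sign of Schwann cells. Of 20 leukocyte markers 5 were above 1 TPM (25%, beside 38.4% of all genes), with sums of 267 to 369 TPM. That share lay below the background, so the count is not read as a sign of leukocytes. The 5 were Cd74 (153 ± 17.2 TPM), Lyz2 (70.1 ± 16.1 TPM), S100a9 (27.4 ± 21.4 TPM), Cd79a (17.3 ± 9.52 TPM) and Ptprc (9.92 ± 6.90 TPM). Fcgr3, Cd3e, Cd8a, Ms4a1, Ncr1 and Nkg7 were listed at 0. The part of other cells in the levels below was not tested, and in such bulk samples fewer cells of a type and less RNA per cell cannot be told apart.

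The ligands summed to 36.5, 42.1 and 8.46 TPM in replicates 1 to 3. Of the 16, 2 were above 0 in all 3 libraries, 3 in 2 libraries, 5 in 1 library and 6 in none, and the median of their means was 0.36 TPM. Tnfsf10 (TRAIL, the ligand of death receptors; chromosome 3, 27317028 to 27342427, GRCm38) gave 9.94, 13.0 and 3.18 TPM in replicates 1 to 3. It was the single ligand above 1 TPM (limma adjusted p = 0.00358). Its mean of 8.72 TPM lay above only 44.3% of the genes above 0.

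Tnfsf12 (TWEAK; chromosome 11, 69686250 to 69695849), the ligand of Tnfrsf12a, gave 15.9, 10.2 and 0.01 TPM. Replicate 3 stood far below the others, and the gene was not decided (limma adjusted p = 0.515). Without replicate 3 it was called above 1 TPM, 3.55 above it on the log2 scale instead of 1.26. Of its longest transcript's 31-base words, 49.7% also occur in another annotated gene, the fused Tnfsfm13, which runs through Tnfsf12 and its neighbour Tnfsf13. Tnfsf13 (APRIL, a B cell survival factor) shares 53.8% of its words with it and with an antisense gene, and gave 0, 2.40 and 1.68 TPM. How reads of the 3 overlapping genes were divided is not given in the sources used here, so both levels are uncertain.

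Ltb, a membrane lymphotoxin that binds Ltbr as a heterotrimer with Lta, gave 0, 12.6 and 0.73 TPM. Replicate 2 alone carried a clear level. Tnfsf14 (LIGHT, which binds Ltbr and Tnfrsf14) gave 1.66, 2.81 and 0 TPM. Tnf itself, the macrophage cytokine that names the family, gave 0, 1.03 and 0 TPM, so 1 library of the 3 held a value and it lay at the threshold. Replicate 2, where Ltb, Tnfsf14, Tnf, Tnfsf10 and Tnfsf13 were highest, also had the highest sum of leukocyte markers (267, 369 and 321 TPM in replicates 1 to 3). Tnfsf12, Tnfsf9 and Tnfsf13b were highest in replicate 1, where that sum was lowest, and Tnfsf15 and Tnfsf8 in replicate 3. The sum was led by Cd74 (134, 165 and 161 TPM), while Ptprc of the same list gave 12.2, 15.4 and 2.18 TPM. These values of Cd74 and Ptprc were picked after they were seen. The part of leukocytes in the ligand levels was not tested.

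Other ligands appeared in 1 library each. Tnfsf9, the ligand of the T cell co-stimulatory receptor Tnfrsf9, was at 7.85 TPM in replicate 1 and at 0 in the other two. It shares 12.9% of its words with the antisense gene Gm11110. Tnfsf15 was at 1.87 TPM in replicate 3 alone, Tnfsf13b (BAFF, a B cell survival factor) at 1.12 TPM in replicate 1 alone, and Tnfsf8 at 0.99 TPM in replicate 3 alone. Fasl, the ligand of Fas on killer lymphocytes, was listed at 0 in all 3 libraries, as were Cd40lg, Lta, Tnfsf4, Tnfsf11 (the osteoclast factor RANKL) and Tnfsf18. None of these ligands was called above or below 1 TPM.

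Tnfrsf12a was by far the most abundant member. Tnfrsf12a (chromosome 17, 23675445 to 23677468, minus strand) encodes a small receptor without a death domain that binds TRAF proteins, and it was first described as a growth factor-inducible gene of fibroblasts. It gave 1290, 1526 and 1368 TPM in replicates 1 to 3 (limma adjusted p = 1.68e-13 against 1 TPM). All 3 libraries lay within 1.18-fold of each other, and its mean exceeded that of 99.1% of genes above 0. It held 63.8%, 68.3% and 71.6% of the summed TPM of the 49 members, which was 2023, 2237 and 1910 TPM. None of its 31-base words occurs in another annotated gene. Its level exceeded that of Tnfrsf1a 5.02-fold, a log2 ratio of 2.33 ± 0.206 of TPM + 0.1, with 3 of 3 libraries higher (exact sign-flip permutation p = 0.25, two-sided, the smallest that 3 libraries allow).

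**Figure D2:**
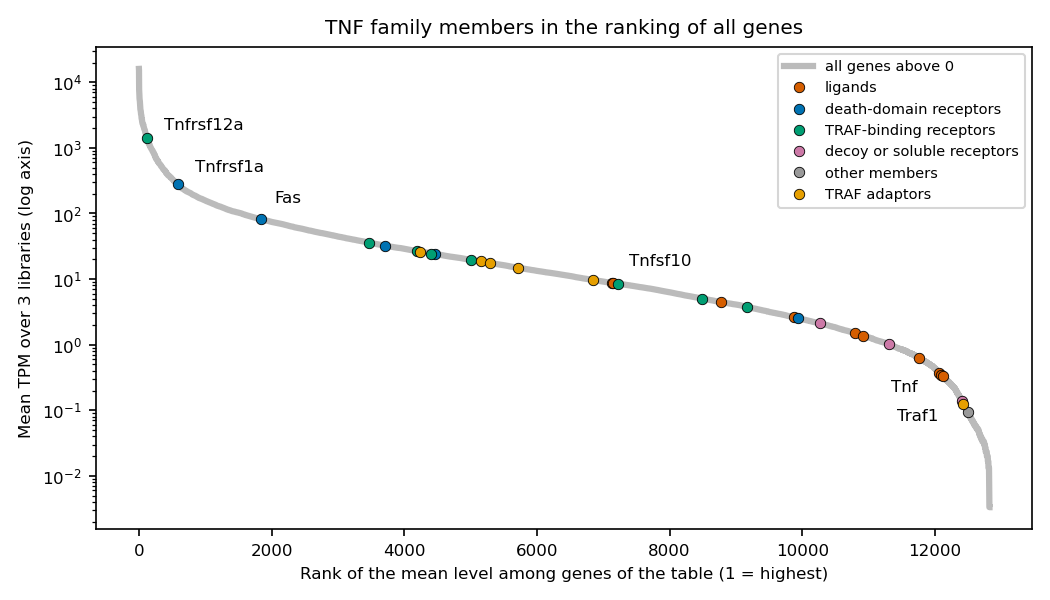
Mean TPM over 3 libraries (log axis) against rank among the genes of the table: the grey line is all genes above 0 and the circles are members coloured by role. Tnfrsf12a stands at rank 121 and Tnfrsf1a at rank 593, whereas the highest ligand, Tnfsf10, stands at rank 7137.

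Of the 7 receptors with a death domain, 4 were above 1 TPM, and the median of the 7 means was 24.2 TPM. Tnfrsf1a, the broadly used TNF receptor (chromosome 6, 125349362 to 125362484), gave 302, 290 and 243 TPM (limma adjusted p = 1.93e-12), a spread of 1.24-fold. Fas, which triggers apoptosis when bound by Fasl (chromosome 19, 34290666 to 34327772), gave 122, 60.7 and 60.6 TPM (limma adjusted p = 2.28e-09). Replicate 1 was 2.02-fold above replicate 3, and its log2 SD of 0.58 exceeded that of 86.6% of genes with a mean within 2-fold.

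Tnfrsf10b, the mouse TRAIL receptor (chromosome 14, 69767472 to 69784411), gave 33.0, 28.6 and 35.1 TPM (limma adjusted p = 1.49e-08). It was the steadiest of these receptors for its level, with a log2 SD above that of only 10.8% of genes of like mean, and 16.3% of its words occur in other annotated genes. Tnfrsf21 (death receptor 6) gave 18.0, 44.0 and 10.5 TPM (limma adjusted p = 6.64e-06), a range of 4.17-fold with replicate 2 highest.

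Ngfr, the low-affinity neurotrophin receptor of nerve sheath cells, gave 0, 3.67 and 3.93 TPM and was not decided. Beside it, the Schwann cell markers summed to 277, 288 and 383 TPM in replicates 1 to 3, while the Schwann cell transcription factor Sox10, named after its values were seen, gave 2.64, 1.23 and 0 TPM, and Gfra3 of the same list was listed at 0. The ectodysplasin receptor Edar and the T cell co-stimulatory receptor Tnfrsf25 were listed at 0 in all libraries.

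Of the 16 receptors that bind TRAF proteins or have no death domain, 5 were above 1 TPM, and the median was 1.88 TPM. Another 8 were listed at 0, beside 7486 of 20308 genes in the table. Below Tnfrsf12a stood Eda2r, the receptor of the ectodysplasin isoform A2 and a p53 target (chromosome X, 97333840 to 97377216), at 37.1, 47.4 and 23.8 TPM (limma adjusted p = 3.51e-08). Ltbr, the lymphotoxin receptor of stromal cells, gave 23.4, 18.6 and 37.7 TPM (limma adjusted p = 2.29e-07). Replicate 3 was highest for Ltbr and lowest for Eda2r.

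Tnfrsf1b, the TNF receptor that prefers membrane-bound TNF and is common on immune and endothelial cells (chromosome 4, 145213463 to 145246870), gave 30.75, 30.95 and 11.89 TPM (limma adjusted p = 1.44e-06). Tnfrsf1a exceeded it 12.3-fold (log2 ratio 3.62 ± 0.628, 3 of 3 libraries higher, exact sign-flip permutation p = 0.25). Tnfrsf19 (TROY, known from hair follicle and intestinal stem cells) gave 18.4, 22.5 and 17.7 TPM (limma adjusted p = 6.49e-07), with a log2 SD above that of only 10.7% of genes of like mean.

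The remaining 3 TRAF-binding receptors were above 0 in at least 1 library but not decided. Cd40, the receptor of antigen-presenting cells, gave 0.60, 16.5 and 8.43 TPM, with replicate 1 far below the others (limma adjusted p = 0.113); it was called above 1 TPM without replicate 1. The sum of leukocyte markers given above was likewise lowest in replicate 1 and highest in replicate 2. Ptprc of that list was instead lowest in replicate 3 (12.2, 15.4 and 2.18 TPM in replicates 1 to 3). The part of leukocytes in the level of Cd40 was not tested. Tnfrsf11a (RANK, the receptor of osteoclast precursors) gave 2.05, 8.15 and 4.93 TPM (limma adjusted p = 0.0654), and it too was called above 1 TPM without replicate 1. Tnfrsf14 was at 11.3 TPM in replicate 1 and at 0 in the other two, and 10.7% of its words occur in other annotated genes.

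The 8 receptors of this class listed at 0 are known mainly from lymphocytes. They were Tnfrsf13b, Tnfrsf13c and Tnfrsf17, which bind survival factors on B cells, and Cd27, Tnfrsf4, Tnfrsf8, Tnfrsf9 and Tnfrsf18, which are known from T cells. Beside them, the T cell markers Cd3e and Cd8a and the B cell marker Ms4a1 were listed at 0, while Cd3g was at 27.2 TPM in replicate 3 alone and Cd79a gave 27.4, 16.2 and 8.45 TPM. Cd3g and Cd79a were named after their values were seen.

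Decoy receptors were at the low end. Osteoprotegerin (Tnfrsf11b), the soluble decoy of Tnfsf11, gave 0, 0.26 and 0.15 TPM. The mouse TRAIL decoys Tnfrsf22 and Tnfrsf23 gave 1.37, 1.67 and 0 TPM and 5.31, 1.02 and 0 TPM. These 2 genes share 40.7% and 34.5% of their 31-base words, largely with each other, so how their reads were divided is uncertain. Tnfrsf26, their neighbour, reached 0.28 TPM in replicate 3 alone.

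Few receptors were measured together with a ligand that was above 0 in every library. Of 23 receptor-ligand pairs, 3 had both genes above 0 in every library, as did 4 of 6 pairs of 2 receptors or 2 adaptors. A ratio was taken only for these 7. Tnfrsf12a exceeded Tnfsf12 by 9.05 ± 3.97 on the log2(TPM + 0.1) scale in 3 of 3 libraries (exact sign-flip permutation p = 0.25); without replicate 3, where Tnfsf12 was at 0.01 TPM, the difference was 6.77. Tnfrsf10b exceeded Tnfsf10 4.26-fold, by 2.09 ± 1.19, in 3 of 3 libraries (exact sign-flip permutation p = 0.25). Eda2r exceeded its ligand gene Eda, at 6.98, 5.27 and 1.53 TPM, 8.79-fold or by 3.14 ± 0.739 in 3 of 3 libraries (exact sign-flip permutation p = 0.25).

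For other pairs the ligand was at 0 in some or all libraries. Tnfrsf1a, at 243 to 302 TPM, stood beside Tnf at 0 to 1.03 TPM and Lta at 0. Fas, at 60.6 to 122 TPM, stood beside Fasl at 0. Ltbr, at 18.6 to 37.7 TPM, stood beside Ltb at 0 to 12.6 TPM and Tnfsf14 at 0 to 2.81 TPM. Tnfsf9, Tnfsf15, Tnfsf13b, Tnfsf13 and Tnfsf8 showed the opposite pattern, with a value in at least 1 library beside receptors (Tnfrsf9, Tnfrsf25, Tnfrsf13b, Tnfrsf13c, Tnfrsf17 and Tnfrsf8) at 0 in all. Ligands that reach satellite cells from other cells of muscle were not measured in these sorted samples.

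**Figure D3:**
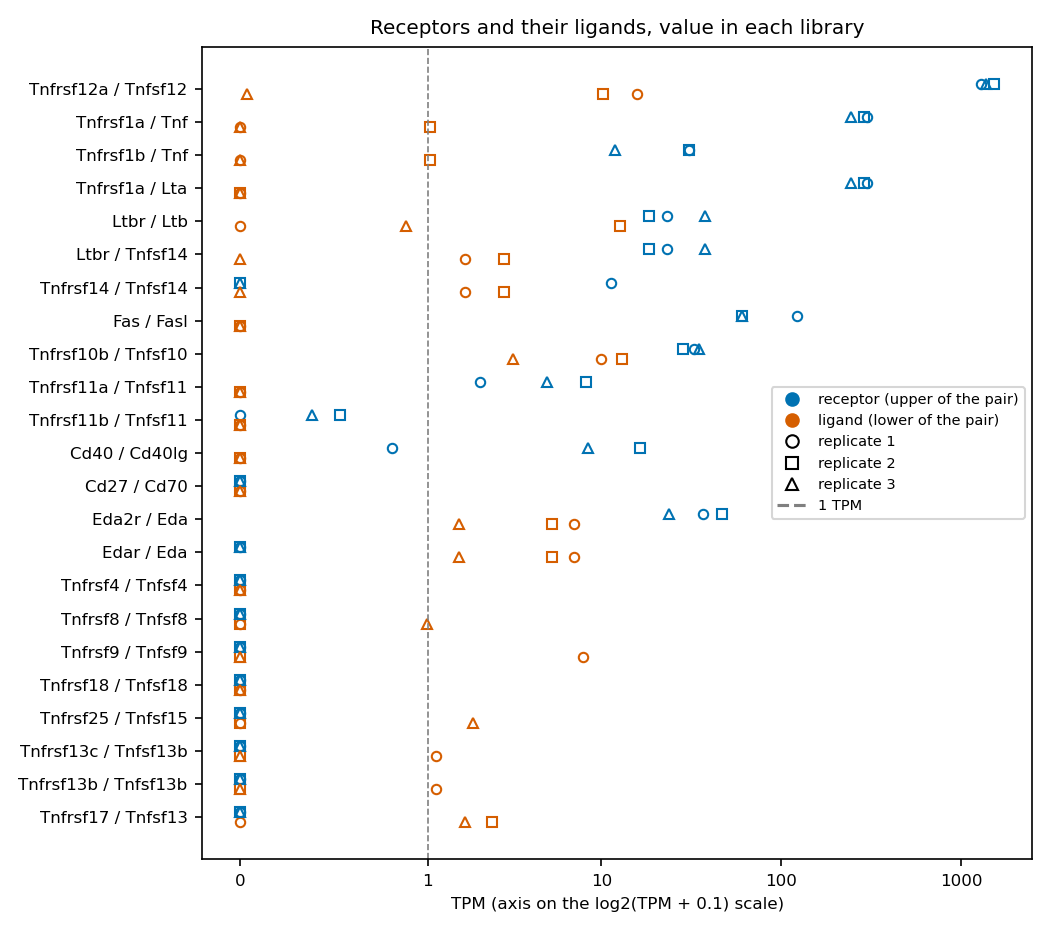
TPM of receptors (blue, upper of each pair) and ligands (orange, lower) in each of the 3 libraries (circle, square and triangle), on the log2(TPM + 0.1) scale with 1 TPM dashed. For the pairs of Tnfrsf12a, Tnfrsf1a, Fas, Tnfrsf10b and Eda2r every receptor value lies to the right of every ligand value, while several lymphocyte pairs have both genes at 0.

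Of the 6 TRAF adaptors, 5 were above 1 TPM, with means from 9.69 TPM (Traf3) to 26.2 TPM (Traf2). The median over all 6 was 16.2 TPM. Traf2, the adaptor of both TNF receptors and of Tnfrsf12a (chromosome 2, 25517982 to 25546940), gave 22.6, 26.7 and 29.2 TPM (limma adjusted p = 6.87e-08). Traf7, which differs from the others in its carboxyl end, gave 24.2, 18.4 and 13.1 TPM (limma adjusted p = 1.89e-06). Traf6, the adaptor of Cd40, Tnfrsf11a and Toll-like receptors, gave 18.4, 22.1 and 12.4 TPM (limma adjusted p = 2.64e-06), and Traf7 and Traf6 did not differ beyond their spread (log2 ratio 0.07 ± 0.327, exact sign-flip permutation p = 0.75).

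Traf4 gave 20.3, 12.9 and 11.4 TPM (limma adjusted p = 1.08e-05). Traf3, which restrains the non-canonical NF-kappaB pathway, gave 5.91, 14.2 and 9 TPM (limma adjusted p = 0.000525). Traf2 exceeded Traf3 2.84-fold (log2 ratio 1.51 ± 0.527, 3 of 3 libraries higher, exact sign-flip permutation p = 0.25). Traf1, an NF-kappaB target of activated lymphocytes, stood at 0, 0 and 0.37 TPM without being decided (limma adjusted p = 0.073). Traf5 was not analysed here.

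Most listed genes of the pathway and its targets were above 1 TPM. The lists were chosen by hand as known pathway, target and further family genes, with earlier results of these data known. In all, 58 of their 77 genes were above 1 TPM (75.3%, beside 38.4% of all genes), with a median of 27.4 TPM. Of the 72 above 0 in at least 1 library the share was 80.6%, beside 60.8% of such genes in the table. Of 5 ligand-shedding genes 4 were above, led by Rhbdf2 (42.7 ± 2.13 TPM) and Rhbdf1 (42.6 ± 25.9 TPM), the partners of the TNF-releasing protease Adam17, and by the protease Adam10 (41.5 ± 4.23 TPM). Of 18 genes of the receptor complex and its ubiquitin chains 15 were above (median 34.1 TPM), led by the kinase Ripk1 (123 ± 28.1 TPM), the ubiquitin ligase Birc3 (84.1 ± 16.5 TPM, with 12.9% of its words shared) and Tnip2 (79.4 ± 36.2 TPM), a partner of the NF-kappaB inhibitor Tnfaip3. The adaptor Tradd, which links Tnfrsf1a to Ripk1 and Traf2, was listed at 0 in all 3 libraries.

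Of 14 kinase relay genes 13 were above 1 TPM (median 24.3 TPM), led by Tab2 (81.9 ± 16.3 TPM), Map2k7 (62.0 ± 5.19 TPM, 37.7% of its words shared) and the IkappaB kinase Chuk (52.5 ± 8.64 TPM). Of 11 death arm genes, each above 0 in at least 1 library, 4 were above 1 TPM (36.4%, beside 38.4% of all genes and 60.8% of genes above 0). The median of the 11 means was 6.36 TPM. Cflar, the inhibitor of caspase 8, led at 97.0, 119 and 204 TPM, with 13.5% of its words shared. Diablo (26.4 ± 10.8 TPM, 70.7% of its words shared), which counters inhibitors of apoptosis, and the Fas-binding protein Daxx (21.2 ± 8.35 TPM) followed. The initiators were not decided: Casp8 (10.1% of its words shared) gave 9.83, 9.25 and 0 TPM, the adaptor Fadd 0.27, 0 and 2.95 TPM, and the necroptosis kinase Ripk3 19.8, 11.8 and 0 TPM. The naming of these 3 followed a look at the values.

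All 5 NF-kappaB subunit genes were above 1 TPM (limma, Benjamini-Hochberg), led by Nfkb1 (651 ± 70.2 TPM), Nfkb2 (210 ± 9.20 TPM, 19.4% of its words shared) and Rela (159 ± 18.2 TPM). Of 21 genes that TNF is known to raise in other cells, 18 were above (median 75.0 TPM), led by the chemokine Cxcl1 (15278 ± 1016 TPM), the NF-kappaB inhibitor Nfkbia (523 ± 90.6 TPM) and the chemokine Cxcl2 (518 ± 46.6 TPM). The muscle wasting ligase Trim63 was listed at 0 in all libraries. Many of these genes also answer to other signals, no untreated or undissociated sample was measured, and which signal set these levels was not tested.

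Family genes outside the symbol rule were mostly at 0. The receptor Relt gave 20.8, 27.9 and 14.3 TPM and was above 1 TPM. Eda was not decided, and Cd70, Edaradd and Pglyrp1 were listed at 0 in all 3 libraries.

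**Figure D4:**
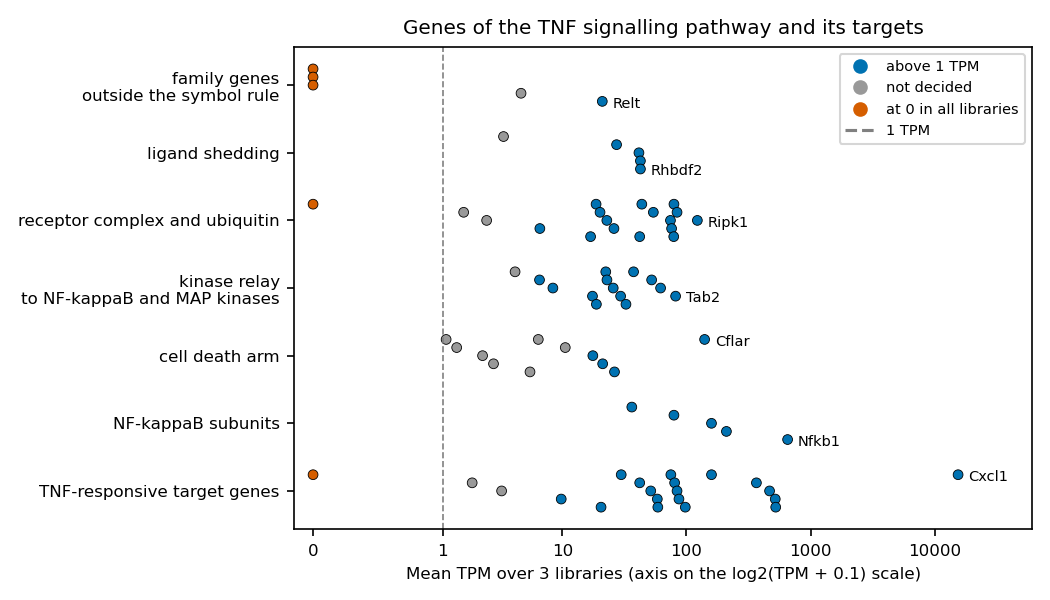
Mean TPM over 3 libraries on the log2(TPM + 0.1) scale for each gene of 7 pathway lists: blue circles were above 1 TPM, grey ones were not decided, orange ones were at 0 in all libraries, and the highest gene of each list is named. The NF-kappaB subunits all lie above 1 TPM, whereas 7 of 11 death arm genes are grey.

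Some members that lie side by side in the genome differed in level and others were alike near 0. On chromosome 6, Cd27, Ltbr and Tnfrsf1a lie between 125232622 and 125362484 and averaged 0, 26.5 and 278 TPM. On chromosome 4, Tnfrsf1b at 24.5 ± 10.9 TPM has as its neighbour Tnfrsf8, listed at 0, and Tnfrsf4 and Tnfrsf18, between 156013843 and 156028895, were both at 0. On chromosome 1, Tnfsf4 and Tnfsf18 were also both at 0. On chromosome 17, Ltb, Tnf and Lta lie between 35194439 and 35205351 and averaged 4.46, 0.34 and 0 TPM, and elsewhere on it Tnfsf9 and Tnfsf14 averaged 2.62 and 1.49 TPM. Tnfsf15 and Tnfsf8 on chromosome 4 averaged 0.62 and 0.33 TPM, and Tnfsf12 and Tnfsf13 on chromosome 11 averaged 8.70 and 1.36 TPM. On chromosome 7, Tnfrsf23, Tnfrsf22 and Tnfrsf26 averaged 2.11, 1.01 and 0.093 TPM. None of the members in these last 3 clusters was decided.

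The base composition around the start sites was read for the members with a RefSeq promoter sequence (GRCm38.p6, 250 bases before to 50 after the start). There were 40 of 49, and for the 4 with several starts the first listed was used. The sequences of Tnfrsf12a, the most abundant member, and of the 3 neighbours on chromosome 6 are shown because these neighbours include a member at 0 and the second most abundant member, 5′ to 3′ on the gene's strand, with every CG dinucleotide in capitals. They lie at chr17:23677400-23677699 (minus strand), chr6:125349473-125349772 (plus strand), chr6:125313836-125314135 (minus strand) and chr6:125236978-125237277 (minus strand).
Tnfrsf12a: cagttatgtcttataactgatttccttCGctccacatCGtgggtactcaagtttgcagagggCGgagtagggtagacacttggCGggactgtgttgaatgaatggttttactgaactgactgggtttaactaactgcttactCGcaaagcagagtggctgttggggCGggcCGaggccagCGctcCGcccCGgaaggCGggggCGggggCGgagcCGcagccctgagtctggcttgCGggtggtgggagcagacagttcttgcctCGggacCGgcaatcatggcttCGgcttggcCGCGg
Tnfrsf1a: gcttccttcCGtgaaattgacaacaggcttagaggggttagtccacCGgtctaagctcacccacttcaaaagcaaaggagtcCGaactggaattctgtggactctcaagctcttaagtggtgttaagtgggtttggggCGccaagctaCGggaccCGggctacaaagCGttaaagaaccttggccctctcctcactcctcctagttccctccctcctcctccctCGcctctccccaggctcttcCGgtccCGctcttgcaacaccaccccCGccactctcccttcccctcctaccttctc
Ltbr: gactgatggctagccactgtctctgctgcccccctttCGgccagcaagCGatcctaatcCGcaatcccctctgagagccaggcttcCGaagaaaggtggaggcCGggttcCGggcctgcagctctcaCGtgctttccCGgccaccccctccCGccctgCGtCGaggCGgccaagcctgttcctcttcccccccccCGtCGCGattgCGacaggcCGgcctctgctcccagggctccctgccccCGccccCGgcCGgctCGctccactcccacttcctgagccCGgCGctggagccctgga
Cd27: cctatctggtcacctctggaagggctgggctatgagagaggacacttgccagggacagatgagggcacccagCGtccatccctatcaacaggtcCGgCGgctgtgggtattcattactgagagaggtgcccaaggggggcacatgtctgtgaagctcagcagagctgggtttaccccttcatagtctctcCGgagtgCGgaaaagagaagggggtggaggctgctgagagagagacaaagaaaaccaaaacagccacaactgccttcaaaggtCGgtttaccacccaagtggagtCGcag
These windows hold 20 CG dinucleotides in Tnfrsf12a, 11 in Tnfrsf1a, 23 in Ltbr and 7 in Cd27.

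Members above 1 TPM had more CG dinucleotides than members at 0, as did genes in general; no test was made. Of 14 members above 1 TPM with a promoter, 12 held at least 10 CG dinucleotides (median 15.5), while 5 of 14 members listed at 0 did (median 7) and 3 of 12 not decided (median 7). Over all genes of the table, 87.7% of those above 1 TPM held at least 10 (median 23), 25.3% of those at 0 (median 4) and 69.3% of those not decided (median 17). The members above 1 TPM with fewer were Eda2r with 5 and Tnfsf10 with 6. In the other direction, Tnfrsf11a held 43 and was not decided. The minimum of 10 was chosen after the data were seen.

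A set of 3 motifs was searched on both strands. The GC box GGGCGG was in 21 of 40 members' windows, or 52.5%, beside 49.0% of 15171 genes. The AP-1 motif TGANTCA was in 5 members, or 12.5%, beside 7.13%. The NF-kappaB consensus was in 3 members, Ltb, Traf3 and Tnfrsf8, or 7.5%, beside 4.72%. A match is a description of the window only.

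**Figure D5:**
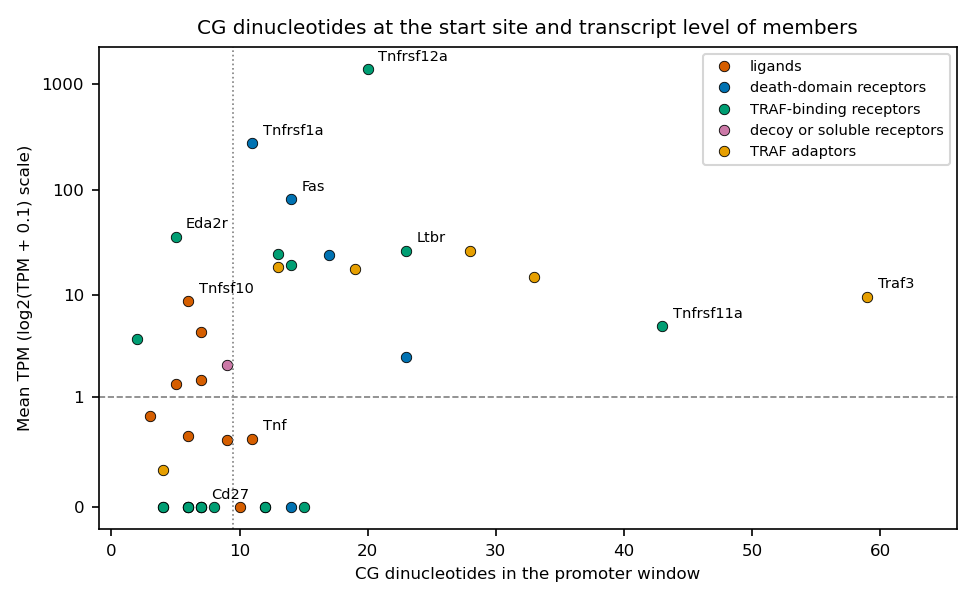
Mean TPM of 40 members (log2(TPM + 0.1) scale, dashed line at 1 TPM) against the number of CG dinucleotides in the promoter window, coloured by role, with a dotted line below 10. Most members above 1 TPM lie right of the dotted line, with Eda2r and Tnfsf10 to its left, whereas members at 0 lie on both sides.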

How the data were processed

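Sorted ZsGreen-positive cells gave RNA by the Picopure kit, per the labels. The submitters' processing notes name RSEM 1.2.3, Bowtie 0.12.9, CASAVA 1.8 and the mm10 build; settings and annotation are not stated there. The authors deposited 1 table of TPM, renormalised without mitochondrial genes, as the name they gave it says, and each column sums to the same total. Depth is unknown, so no counting interval is given.

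For 12822 genes above 0 in at least 1 library, log2(TPM + 0.1), which understates folds of low genes, was tested against log2(1 + 0.1) with limma 3.58.1 in R 4.3.3 (intercept, empirical Bayes with variance trend, two-sided, Benjamini-Hochberg, threshold 0.05). Ratios within libraries carry an exact sign-flip permutation test. On simulated data with 12822 genes, the level test called 40% and 90% of genes planted at 4 and 8 TPM. Of genes planted at 1 TPM it called 2% above and 4% below. At 2 TPM it called 10% above and 4%, wrongly, below. The simulated noise was normal on the log2 scale, which real genes often listed at 0 need not follow. Positions and shared 31-base words, counted on both strands, are from GENCODE M21 (GRCm38, the assembly of mm10). Listed symbols were matched directly or through a RefSeq synonym; role groups rest on textbook knowledge. Named were all members, and of each other list the 3 highest and those at 0; exceptions are marked. Of the lists, 2 genes are not reported here and were left out of their counts. The members and lists were chosen with earlier results of these data known.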

Additional observations from a re-analysis of the deposited data

How the results depend on the processing

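All 15 members above 1 TPM stayed above it under each of 10 alternatives (other pseudocounts, filters and priors, median rescaling, each replicate left out), with a highest limma adjusted p of 0.033, for Tnfsf10. The count of members above ranged over 15 to 17, with Tnfrsf11a, Cd40 or Tnfsf12 added. Members below 1 TPM numbered 0, but 3 with a pseudocount of 1 or without the variance trend, 2 with a robust prior, and 19 when genes at 0 in all libraries were tested as well; Tnfrsf26, Traf1 and, in all but the robust prior, Tnfrsf11b were among them. Over all genes, 279 lay below 1 TPM. That count was 451 with a pseudocount of 1, 3 with a pseudocount of 0.01, 0 for genes of at least 0.1 TPM on average, 8056 with genes at 0 included, 478 without the trend, and 0 with any single replicate left out. The 8056 hold 7486 added genes at 0 and 570 genes above 0; the cause of the other changes was not tested. Pathway and target genes above 1 TPM ranged over 56 to 60, and each of the 7 ratios kept its sign or moved by less than its SD. No paired analysis was possible because the libraries form 1 group. Fits to 2 libraries rest on the spread pooled over genes. Depth being unknown, low members cannot be told from absent ones.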
